A study of Mus musculus with 4 samples.

Results

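The genes described here are 47 genes of the G2 phase and of mitosis, taken as a given list of symbols and found by symbol among the 32285 genes of the count matrices. All 47 had UMIs in each of the 4 libraries. They were followed in C3H10T1/2 cells, a mouse line of mesenchymal progenitor cells (MPC), that carried a lentiviral histone H3 transgene with HA and FLAG tags under an EF1 promoter and were selected with puromycin. The transgene was wild type (H3WT) or had a cysteine in place of an arginine in its tail (H3R26C), so the cells of both genotypes also kept their own histone H3 genes. Each genotype was given the vehicle (DMSO) or 5-Azacytidine (5-Aza), an inhibitor of DNA methyltransferases that lets some of these progenitors turn into muscle or adipocytes. Each of these 4 conditions was 1 droplet library. The 5-Aza cells were collected after a course of differentiation, while the day of collection of the DMSO cells is not stated, so time in culture and treatment cannot be told apart.

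Cells in G2 accumulate the kinase Cdk1 and its B-type cyclins, condense their chromosomes, attach them through kinetochores to a bipolar spindle, and part them when the anaphase promoting complex marks securin and cyclin B for destruction. Most genes of this programme are kept off in resting cells and in early interphase by the DREAM complex and are switched on late in the cycle by B-Myb and FoxM1, through a promoter element called CHR, often beside CCAAT boxes bound by NF-Y. Skeletal muscle cells form from progenitors that leave the cell cycle for good, a step in which the CDK inhibitor p21 (Cdkn1a) and the retinoblastoma protein take part.

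Barcodes with at least 5000 UMIs, at least 1500 genes and at most 20% mitochondrial UMIs were kept, 22049 of the 39891 deposited. The libraries held 3710 to 7619 kept cells and 84060490 to 110712425 UMIs, and the median cell had 22420 UMIs in H3WT DMSO, 13149 in H3WT 5-Aza, 16598 in H3R26C DMSO and 13123 in H3R26C 5-Aza. The 4 libraries stayed apart in barcodes except for 24 to 58 kept barcodes shared by each pair, and leaving these cells out kept the summed ratios and the shares of cells given below within their counting intervals. Summed mesenchymal markers (Col1a1, Col1a2, Col3a1, Thy1, Pdgfrb and Ly6a) lay between 8832 and 9838 CPM (UMIs scaled to a total of 1000000 per library or group of cells), against 4.69 to 8.23 CPM for 5 endothelial and 4.62 to 14.0 CPM for 5 blood markers. Summed adipocyte markers, among them Adipoq, Fabp4 and Plin4, were at 189 CPM in H3WT DMSO and 330 in H3WT 5-Aza. They were at 217 CPM in H3R26C DMSO and 212 in H3R26C 5-Aza. Single markers of this sum went both ways. In H3R26C Fabp4 (56.4 and 89.7 CPM), Lpl (37.4 and 74.8) and Cd36 were higher with 5-Aza. Plin4 (75.8 and 15.7 CPM), Adipoq, Plin1, Cidec and Pparg were lower there. In H3WT Plin4 (113 and 67.3 CPM) and Pparg were lower with 5-Aza and the other adipocyte markers higher. The 12 muscle markers summed to 2.29 and 2.36 CPM in the DMSO libraries and to 1542 and 2018 CPM in the 5-Aza libraries. With 1 library per condition there is no replicate and no test between conditions. All intervals are 95% and exact, Poisson for counts and binomial for shares, and cover counting error only. Those for counts take each UMI as independent and leave out the spread between cells of a library.

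The G2 and mitosis genes were lowest in H3WT DMSO and highest in H3R26C 5-Aza. Their pooled sum was 1327 CPM in H3WT DMSO, 1746 in H3WT 5-Aza, 1934 in H3R26C DMSO and 2678 in H3R26C 5-Aza. The sum was 1.32-fold (1.31 to 1.33) higher with 5-Aza than with DMSO in H3WT and 1.38-fold (1.38 to 1.39) higher in H3R26C. H3R26C was 1.46-fold (1.45 to 1.47) above H3WT with DMSO and 1.53-fold (1.52 to 1.54) above it with 5-Aza. Gene by gene, H3WT DMSO was the lowest library for 44 of the 47, with Cks1b, Hjurp and Cbx5 as the exceptions. H3R26C 5-Aza was the highest for 42, with Cks1b, Ncapd2, Lbr, Cbx5 and Anp32e as the exceptions. The shares of all genes with the same lowest or highest library were not computed. A pooled level alone cannot tell more cells in G2 or mitosis from more of this RNA in each such cell, and the single cells are taken up further on.

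**Figure D1:**
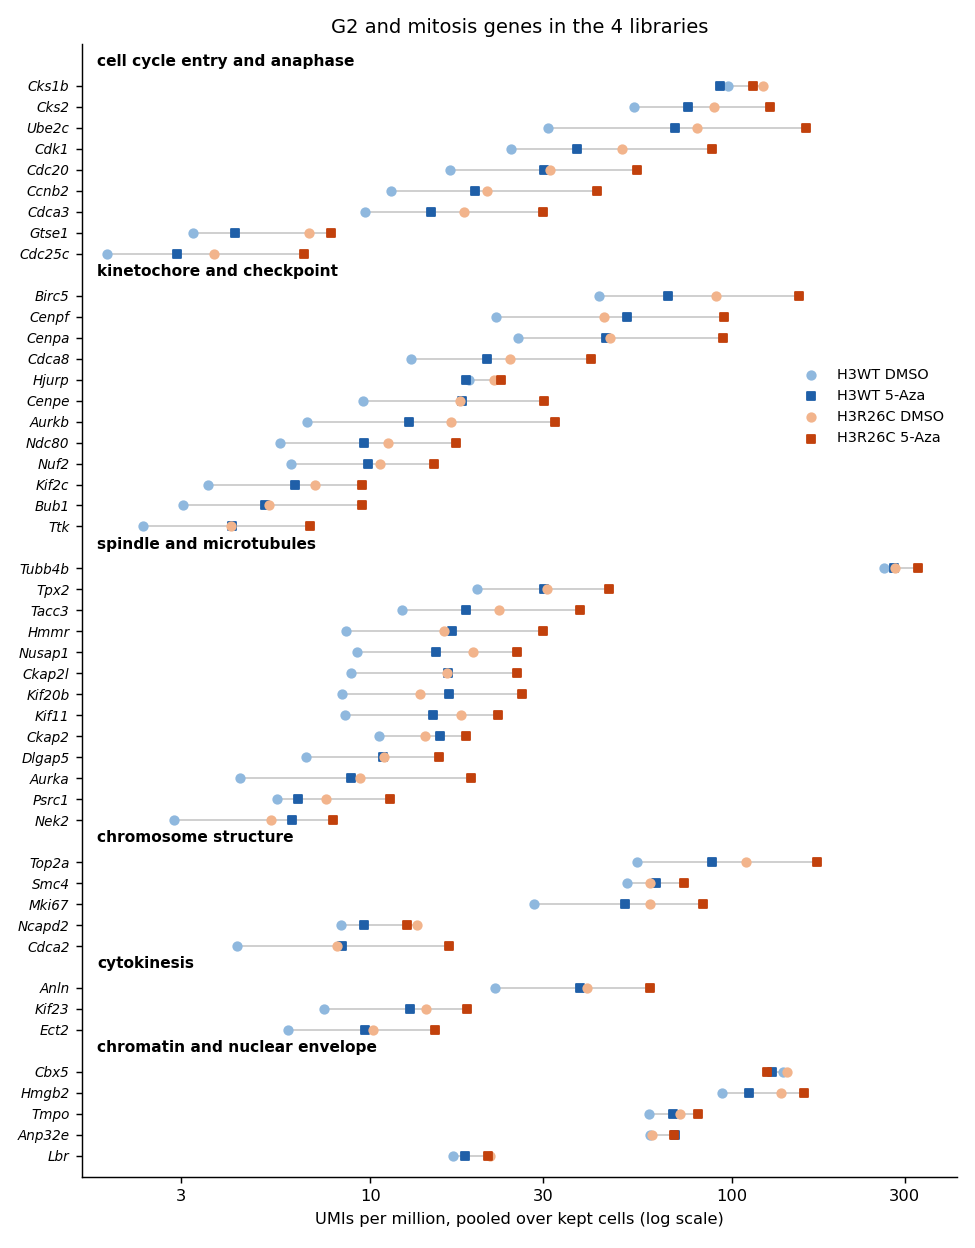
Level of each of the 47 genes in the 4 libraries, in CPM pooled over kept cells on a log axis, grouped by role and ordered within a role by mean level. Circles are DMSO and squares 5-Aza libraries, and H3WT DMSO lies at the left end for 44 genes while H3R26C 5-Aza lies at the right end for 42.

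Most of the genes were higher with 5-Aza and in H3R26C by under 2-fold (with 1 CPM added to each value). Among the 45 that averaged 5 CPM or more, all except Cdc25c and Ttk, 2 were at least 2-fold higher with 5-Aza in H3WT, beside 2.88% of all 10149 genes that met the same minimum. In H3R26C 2 were at least 2-fold higher with 5-Aza, beside 4.44% of all genes. H3R26C over H3WT gave 4 with DMSO, beside 1.5% of all genes, and 8 with 5-Aza, beside 2.81%. These 4 counts rest on the value added: they were 4, 6, 10 and 9 with 0.1 CPM and 2, 1, 1 and 4 with 5 CPM. With 1 CPM none was at least 2-fold lower in any of these comparisons, beside 0.236%, 3.18%, 0.453% and 2.62% of all genes in the same order. The median log2 ratio of the 45 was 0.63, 0.53, 0.81 and 0.70 in these comparisons, where the median over all genes was 0.03, -0.05, 0.04 and -0.04. Those above 0 numbered 42, 41, 45 and 43 of 45, a count that was not made over all genes. The comparisons share libraries, so these counts are not independent of each other.

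Among the 9 genes of cell cycle entry and anaphase, the sum was 249 CPM in H3WT DMSO, 346 in H3WT 5-Aza, 422 in H3R26C DMSO and 632 in H3R26C 5-Aza. Ube2c, the E2 enzyme that hands ubiquitin to substrates of the anaphase promoting complex, read 31.1, 69.6, 79.8 and 160.3 CPM in the same order. It stood 2.24-fold (2.14 to 2.34) higher with 5-Aza in H3WT and 2.57-fold (2.45 to 2.68) higher in H3R26C DMSO than in H3WT DMSO, and was past 2-fold in each of those comparisons. Cdk1, the kinase that drives entry into mitosis, read 24.4, 37.3, 49.8 and 88.3 CPM. Its H3R26C 5-Aza level was 2.37-fold (2.27 to 2.46) that of H3WT 5-Aza. Ccnb2, a B-type cyclin that activates Cdk1, followed the same order at 11.4, 19.4, 21.1 and 42.4 CPM. Cdc20, which activates the anaphase promoting complex, lay close in H3WT 5-Aza and H3R26C DMSO, at 30.2 and 31.5 CPM, between 16.6 in H3WT DMSO and 54.7 in H3R26C 5-Aza.

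The paralogs Cks1b and Cks2 encode small subunits that bind cyclin-dependent kinases, and their patterns parted. Cks2 had the order of Cdk1, at 53.7, 75.4, 89.2 and 128 CPM. Cks1b read 97.3, 92.4, 122 and 114 CPM, slightly lower with 5-Aza in both genotypes, with ratios of 0.950 (0.921 to 0.980) in H3WT and 0.936 (0.912 to 0.961) in H3R26C. The genotype difference was present in both paralogs, 1.25-fold (1.22 to 1.29) for Cks1b and 1.66-fold (1.6 to 1.72) for Cks2 with DMSO. Cks1b also has a role at the entry to S phase, where it helps to clear the CDK inhibitor p27. Gtse1, Cdca3 and Cdc25c, the other members of the group, ran from 1.88 to 9.70 CPM in H3WT DMSO and from 6.56 to 30.02 CPM in H3R26C 5-Aza.

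The 12 kinetochore and checkpoint genes summed to 159, 268, 300 and 527 CPM, a sum 1.68-fold and 1.76-fold higher with 5-Aza in H3WT and H3R26C and 1.88-fold and 1.97-fold higher in H3R26C with DMSO and 5-Aza. Cenpf, a large protein of the outer kinetochore, read 22.3, 51.3, 44.2 and 94.8 CPM, and was 2.30-fold (2.18 to 2.42) and 2.15-fold (2.07 to 2.23) higher with 5-Aza in H3WT and H3R26C. Unlike most of the genes it was higher in H3WT 5-Aza than in H3R26C DMSO. Birc5, the survivin subunit of the chromosomal passenger complex, was higher in H3R26C DMSO than in H3WT 5-Aza, at 42.8, 66.5, 90.5 and 153 CPM. Aurkb, the kinase of the same complex, had the highest ratio of H3R26C 5-Aza to H3WT 5-Aza of the named genes, 2.52-fold (2.35 to 2.70), from levels of 6.68, 12.8, 16.7 and 32.3 CPM.

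Cenpa, the histone H3 variant that marks centromeres, read 25.7, 44.9, 45.9 and 94.3 CPM. Its H3R26C 5-Aza level was 2.05-fold (1.98 to 2.13) that of H3R26C DMSO. Hjurp, the chaperone that deposits Cenpa protein at centromeres, hardly followed it, at 18.8, 18.4, 22 and 23.0 CPM. The 5-Aza ratios of Hjurp were 0.978 (0.912 to 1.05) in H3WT and 1.04 (0.982 to 1.11) in H3R26C, and both intervals include 1. The remaining 7 of the group, the kinetochore genes Ndc80, Nuf2, Cenpe and Kif2c, the checkpoint kinases Bub1 and Ttk and the passenger subunit Cdca8, were 1.35 to 1.88-fold higher with 5-Aza and 1.52 to 1.98-fold higher in H3R26C.

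RefSeq promoter windows (GRCm38.p6, 250 bases before to 50 after the annotated start) were found by symbol for 41 of the 47 genes, 46 windows in all, and not for Aurkb, Cdc25c, Cdca2, Dlgap5, Smc4 and Tpx2. The letters TTTGAA, the usual core of the CHR, stood on either strand in 67.4% of these windows and in 17.9% of the 32851 windows of all genes. The variant TTTAAA stood in 26.1% of them and in 13.2% of all windows, and CCAAT on either strand in 78.3% and 37.4%. TTTGAA and CCAAT were found together in 56.5% of the windows and in 6.95% of all windows. Of 31 windows for 28 mitosis genes outside the list, 71.0% held TTTGAA, 9.68% TTTAAA, 67.7% CCAAT and 51.6% both TTTGAA and CCAAT. The 4 windows printed here are those with both letter runs among the 3 genes of highest mean level in each of the cell cycle entry and kinetochore groups, and set genes that were higher with 5-Aza beside Cks1b, which was not. They lie at chr5:30666636-30666935 on the plus strand for Cenpa, chr1:189688037-189688336 on the minus strand for Cenpf, chr3:89418242-89418541 on the minus strand for Cks1b, chr2:164769679-164769978 on the plus strand for Ube2c. Capitals mark TTTGAA and CCAAT or their reverse complements TTCAAA and ATTGG.
Cenpa: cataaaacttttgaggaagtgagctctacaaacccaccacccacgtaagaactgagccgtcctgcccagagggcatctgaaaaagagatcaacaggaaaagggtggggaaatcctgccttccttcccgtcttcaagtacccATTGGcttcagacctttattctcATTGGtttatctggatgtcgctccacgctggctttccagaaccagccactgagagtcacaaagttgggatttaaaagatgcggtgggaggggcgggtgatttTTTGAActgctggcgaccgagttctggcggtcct
Cenpf: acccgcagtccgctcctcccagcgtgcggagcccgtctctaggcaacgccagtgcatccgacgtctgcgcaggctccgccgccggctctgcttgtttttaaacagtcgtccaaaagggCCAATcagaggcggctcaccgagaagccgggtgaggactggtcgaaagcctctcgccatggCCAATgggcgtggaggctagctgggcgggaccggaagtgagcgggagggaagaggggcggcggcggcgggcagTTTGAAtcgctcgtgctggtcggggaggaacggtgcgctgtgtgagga
Cks1b: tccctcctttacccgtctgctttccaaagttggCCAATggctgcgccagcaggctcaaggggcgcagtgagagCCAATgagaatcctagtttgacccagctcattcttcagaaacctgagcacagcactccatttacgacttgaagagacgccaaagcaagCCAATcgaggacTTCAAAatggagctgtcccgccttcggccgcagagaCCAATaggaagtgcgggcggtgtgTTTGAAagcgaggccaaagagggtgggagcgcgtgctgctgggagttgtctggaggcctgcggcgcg
Ube2c: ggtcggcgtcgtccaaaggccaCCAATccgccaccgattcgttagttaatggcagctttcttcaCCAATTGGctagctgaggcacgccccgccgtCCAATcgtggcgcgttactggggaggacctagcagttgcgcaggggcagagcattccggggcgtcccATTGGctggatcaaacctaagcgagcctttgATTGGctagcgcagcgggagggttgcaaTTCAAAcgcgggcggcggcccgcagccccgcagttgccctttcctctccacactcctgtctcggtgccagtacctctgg

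Counting from the start site, the TTTGAA run begins at position 17 in Cenpa and 3 in Cenpf, at -17 in Cks1b, which also holds TTCAAA at -77, and the reverse run at -29 in Ube2c. All 4 windows hold CCAAT upstream of the start in 2 or more copies. Cks1b thus carried the same letters as Ube2c, Cenpa and Cenpf while its level differed less between the libraries than theirs. Cks2 and Birc5, also among the genes of highest mean level in these groups, had no TTTGAA in their windows. The Cks2 window held CCAAT, and the Birc5 window held TTTAAA and no CCAAT. Both genes were higher with 5-Aza in both genotypes. In Ube2c a CCAAT and an ATTGG overlap. A match of letters is no evidence of binding, and no binding was measured here.

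The 13 spindle and microtubule genes summed to 368, 456, 466 and 613 CPM, and most of that was Tubb4b, a beta-tubulin that many cells express outside mitosis. Tubb4b read 263, 280, 282 and 327 CPM, with ratios from 1.06 to 1.17 in the 4 comparisons, and reads shared with other tubulin genes may be missing from its count. Tpx2, which activates the kinase Aurka on the spindle, was at 19.7, 30.2, 30.8 and 45.8 CPM, nearly equal in H3WT 5-Aza and H3R26C DMSO. Tacc3, which holds bundles of spindle microtubules together, read 12.3, 18.4, 22.7 and 38.0 CPM. Kif20b, a kinesin of the spindle midzone, was, with 1 CPM added, among the 3 genes with the highest 5-Aza ratio in H3WT, 1.97-fold (1.80 to 2.16), at 8.38 CPM with DMSO and 16.5 with 5-Aza, and read 13.7 and 26.3 CPM in H3R26C. In the other 9, among them Aurka, the motor Kif11 and the bundling protein Nusap1, ratios ran from 1.14 to 2.12 with 5-Aza and from 1.18 to 2.15 for H3R26C over H3WT.

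Of the 5 genes of chromosome structure, Top2a and Mki67 followed the order of the summed list, while Smc4 was lower in H3R26C DMSO than in H3WT 5-Aza and Ncapd2 was highest in H3R26C DMSO. Top2a, the topoisomerase that untangles sister chromatids, read 54.6, 87.8, 109.5 and 172 CPM. Mki67, which coats mitotic chromosomes, read 28.4, 50.8, 59.2 and 83.1 CPM. It was 1.79-fold (1.70 to 1.88) higher with 5-Aza in H3WT and 1.40-fold (1.35 to 1.45) higher in H3R26C. Smc4 and Ncapd2 are condensin subunits. Smc4 read 51.4, 61.7, 59.4 and 73.9 CPM, and Ncapd2 8.29, 9.64, 13.5 and 12.6 CPM, with a 5-Aza ratio in H3R26C of 0.939 (0.868 to 1.02) whose interval includes 1. Cdca2, which brings a phosphatase to anaphase chromosomes, was 1.95 and 2.05-fold higher with 5-Aza.

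The 3 cytokinesis genes Anln, Kif23 and Ect2 moved alike, with sums of 35.6, 60.7, 64.3 and 93.2 CPM. Anln, which scaffolds the contractile ring, stood at 22.2, 38.1, 39.9 and 59.5 CPM. Kif23, a motor of the central spindle, was 1.73-fold (1.57 to 1.91) higher with 5-Aza in H3WT and 1.3-fold (1.21 to 1.40) in H3R26C, from 7.47 and 14.3 CPM with DMSO. Ect2, which switches on the small GTPase RhoA at the division plane, was at 5.92, 9.67, 10.2 and 15.1 CPM.

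The 5 genes of chromatin and the nuclear envelope differed least, with sums of 367, 397, 432 and 455 CPM. Cbx5, the heterochromatin protein HP1 alpha, went the other way with 5-Aza: it read 138 and 129 CPM in H3WT and 142 and 125 CPM in H3R26C, ratios of 0.934 (0.910 to 0.959) and 0.879 (0.858 to 0.901). Hmgb2, a DNA-bending chromatin protein, read 93.7, 112, 137 and 159 CPM and had the widest range of the group. Tmpo, a lamina-associated protein, read 58.9, 68.5, 71.8 and 80.8 CPM. Lbr, the lamin B receptor, at 16.9, 18.2, 21.4 and 21.2 CPM, and Anp32e, a histone chaperone, at 59.4, 69.5, 60.2 and 69.3 CPM, each differed by no more than 1.26-fold.

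Counts of the genes per cell separated a small group of cells from the rest. A random draw of 5000 UMIs was taken from every cell so that deep and shallow cells could be compared, which left out no kept cell. The median thinned cell held UMIs of 3 of the 47 genes in each library. Cells with 10 or more of them were 3.99% of H3WT DMSO (148 of 3710, 3.38 to 4.67%), 6.64% of H3WT 5-Aza (398 of 5993, 6.02 to 7.30%), 8.23% of H3R26C DMSO (389 of 4727, 7.46 to 9.05%) and 15.3% of H3R26C 5-Aza (1164 of 7619, 14.5 to 16.1%). These intervals do not overlap. The share was 1.66-fold (1.38 to 2.02) higher with 5-Aza in H3WT and 1.86-fold (1.65 to 2.09) in H3R26C, and 2.06-fold (1.70 to 2.51) and 2.30-fold (2.05 to 2.58) higher in H3R26C with DMSO and 5-Aza. Without thinning the shares were 12.5%, 11.0%, 13.1% and 23.8%, and the order of the H3WT libraries turned, at median depths of 22420 and 13149 UMIs per cell.

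**Figure D2:**
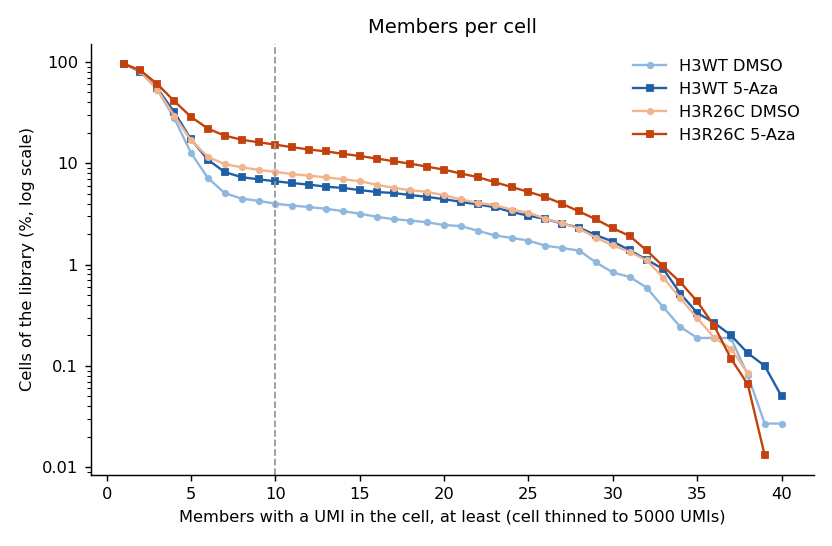
Share of the cells of each library, in percent on a log axis, that held UMIs of at least the given number of the 47 genes after thinning to 5000 UMIs. The dashed line marks 10 genes, where the shares are 3.99%, 6.64%, 8.23% and 15.3%, and the curves of all 4 libraries are flatter there than below 5 genes.

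These cells were chosen by the genes of the list, so its level in them is a description. They held 49.2% of its UMIs in H3WT DMSO, 62.0% in H3WT 5-Aza, 67.4% in H3R26C DMSO and 77.1% in H3R26C 5-Aza. They were 6.15%, 9.08%, 12.7% and 21.1% of the UMIs of the libraries. Their median was 21 to 23 genes of the list per thinned cell and the highest was 42. They were also larger in RNA, with medians of 36114.5, 19120, 27601 and 19732 UMIs against 22179.5, 12922, 16257 and 12523 in the other cells of the same libraries. Doublets were not removed, and the part of doublets in these shares was not tested.

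The list was compared with genes that it does not contain. A cell was called mitosis-positive when its thinned counts held at least 5 of 36 other mitosis genes, among them Ccnb1, Plk1, Prc1, Pttg1 and Smc2, a limit set after the data were seen. This gave 137, 365, 366 and 1025 cells, or 3.69%, 6.09%, 7.74% and 13.5% of the libraries. Of these, 95.4% to 97.8% also held 10 or more genes of the list, against 0.448% to 2.76% of the other cells. Both sets are mitosis genes, so their meeting in the same cells is a description. Of the 47 genes of the list, 39 had over 50% and 36 had over 75% of their UMIs in mitosis-positive cells, with a median of 87.1%. These cells held 5.73%, 8.47%, 12.1% and 18.7% of all UMIs of the libraries. How many of all genes passed the same limits was not computed. The share was 93.4% for Aurkb, 93.0% for Ube2c, 92.2% for Cenpf and 91.4% for Birc5. In these cells Ube2c was at 713 CPM, against 6.0 CPM in cells that were positive neither for mitosis nor for S-phase genes.

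The other 8 genes had over 50% of their UMIs outside mitosis-positive cells. They were Cbx5 with 16.4% inside, Anp32e with 27.9%, Lbr with 30.6%, Cks1b with 35.2%, Tubb4b with 37.3%, Tmpo with 43.7%, Smc4 with 47.7% and Hjurp with 49.9%. The ratios between libraries of these 8 ran from 0.934 to 1.20 for 5-Aza in H3WT, from 0.879 to 1.24 in H3R26C, from 1.01 to 1.26 for H3R26C over H3WT with DMSO and from 0.964 to 1.25 with 5-Aza, with medians of 1.07, 1.08, 1.16 and 1.17. The 39 others ran from 1.14 to 2.30, 0.939 to 2.15, 1.34 to 2.57 and 1.18 to 2.52 in the same comparisons, with medians of 1.70, 1.57, 1.86 and 1.79. Both measures come from the same cells, so this is a description.

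**Figure D3:**
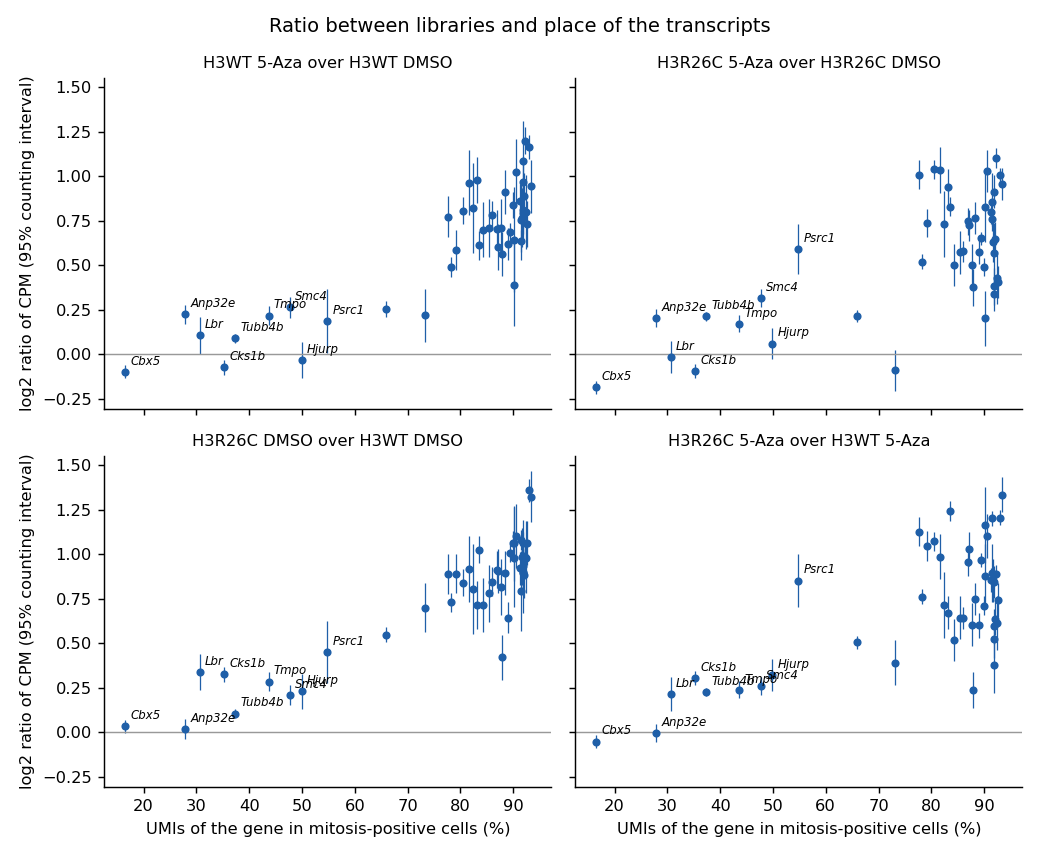
Log2 ratio between libraries for each of the 47 genes, with its 95% counting interval, against the percent of the gene's UMIs that lay in mitosis-positive cells of all libraries. Each panel is a comparison, and the 8 genes with under 50% of their UMIs in those cells lie near 0 in every panel, between ratios of 0.879 and 1.26.

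Within mitosis-positive cells the list differed less between libraries than in the whole libraries, in cells that were themselves chosen by a high count of like genes. Its summed level there was 11051 CPM in H3WT DMSO, 12535 in H3WT 5-Aza, 10525 in H3R26C DMSO and 10545 in H3R26C 5-Aza. The ratios were 1.13 and 1.0 for 5-Aza over DMSO in H3WT and H3R26C, and 0.952 and 0.841 for H3R26C over H3WT with DMSO and 5-Aza. Over the single genes and the 4 comparisons, the lowest log2 ratio in these cells was that of Ckap2, a spindle-associated protein, at -0.86 for H3R26C over H3WT with 5-Aza, and the highest that of Cenpf, at 0.69 for 5-Aza over DMSO in H3WT. In cells positive for neither class the sum was 713, 727, 703 and 766 CPM. Much of it came from Tubb4b and Cbx5, at 205 and 125 CPM in these cells of all libraries pooled. Single genes differed more than the sum there. With 1 CPM added, their median log2 ratio was 0.37 and 0.74 for 5-Aza over DMSO in H3WT and H3R26C. For H3R26C over H3WT it was 0.05 with DMSO and 0.42 with 5-Aza. The highest was Ube2c, at 1.91 for 5-Aza over DMSO in H3R26C. Some cells that were not mitosis-positive still passed the limit set above for many genes of the list. They were 0.45% of such cells in H3WT DMSO, 0.73% in H3WT 5-Aza, 0.92% in H3R26C DMSO and 2.76% in H3R26C 5-Aza. These shares also count cells at the S-phase limit. How far such cells account for the single-gene ratios was not tested. The median over all genes in cells positive for neither class was not computed.

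Barcodes below the cell filter, which can hold free RNA and broken cells, had the list at 1476, 1488, 2084 and 1858 CPM. In the kept cells positive for neither class the list stood at 703 to 766 CPM. How much of the low level in these cells was free RNA was not tested.

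S-phase genes separated the list further. Cells with at least 8 of 43 S-phase genes that were not mitosis-positive made up 1.16%, 1.72%, 2.52% and 5.25% of the libraries. In them the list stood at 2045, 1668, 1851 and 2046 CPM, between the other classes. Inside mitosis-positive cells, 1062 also reached the S-phase limit and 831 did not, and 28 of the 47 genes were higher in the cells that did not. Cenpa was 2.63-fold higher in them, Ccnb2 2.15-fold, Cenpf 2.14-fold, Cdc20 2.12-fold and Cdc25c, the phosphatase that activates Cdk1, 2.08-fold. Lbr, Aurkb, Cbx5, Tmpo and Top2a were lower in them, with ratios of 0.687, 0.713, 0.714, 0.732 and 0.767. Both groups of cells were pooled over the libraries, which differed in their share at the S-phase limit, so library differences enter these ratios. How many of all genes were higher in the cells that did not reach the limit was not computed. The share of mitosis-positive cells at the S-phase limit was 60.6% (51.9 to 68.8%) in H3WT DMSO, 55.1% (49.8 to 60.2%) in H3WT 5-Aza, 70.5% (65.5 to 75.1%) in H3R26C DMSO and 50.7% (47.6 to 53.8%) in H3R26C 5-Aza.

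Muscle-like cells, with at least 1% of their UMIs from 43 sarcomeric genes, were found only with 5-Aza, 172 cells of H3WT (2.87%) and 232 of H3R26C (3.05%). No DMSO cell came near, the highest sarcomeric shares being 0.0628% and 0.0431%. In the muscle-like cells Myog, a regulator of muscle differentiation, was at 1152 and 1469 CPM, against 27.1 and 36.8 CPM in the other cells of H3WT and H3R26C. Near the limit lay 64 and 89 cells between 0.5% and 1% and 31 and 38 cells between 1% and 2%.

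The G2 and mitosis genes were lower in muscle-like cells than in the other cells of the same library. Their sum was 968 CPM (931 to 1006) against 1772 in H3WT 5-Aza and 970 CPM (942 to 999) against 2753 in H3R26C 5-Aza, log2 ratios of -0.87 (-0.93 to -0.82) and -1.51 (-1.55 to -1.46). The sums in muscle-like cells of both genotypes had overlapping intervals, while those of the other cells stood apart. The likeness of the sums did not hold in each part of the list. Cell cycle entry and anaphase genes were at 111 CPM (98.5 to 124) in muscle-like cells of H3WT and 140 (130 to 151) in H3R26C. Spindle and microtubule genes were at 312 CPM (291 to 334) and 274 (259 to 289). In the other role groups the intervals overlapped. In H3WT 45 and in H3R26C 46 of the 47 genes were lower in muscle-like cells, where the share of all genes that was lower was not computed. In H3WT 40 genes averaged 5 CPM or more over both kinds of cell, of which 31 were at least 2-fold lower, beside 14.6% of all 10223 genes, and none was 2-fold higher, beside 8.54%. In H3R26C 39 of 44 were at least 2-fold lower, beside 17.6% of all 10177 genes, and none was 2-fold higher, beside 7.36%. The median log2 ratio was -1.74 and -2.42, and that of all genes -0.22 and -0.29. Any gene, of the list or not, could meet the minimum through a single kind of cell.

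**Figure D4:**
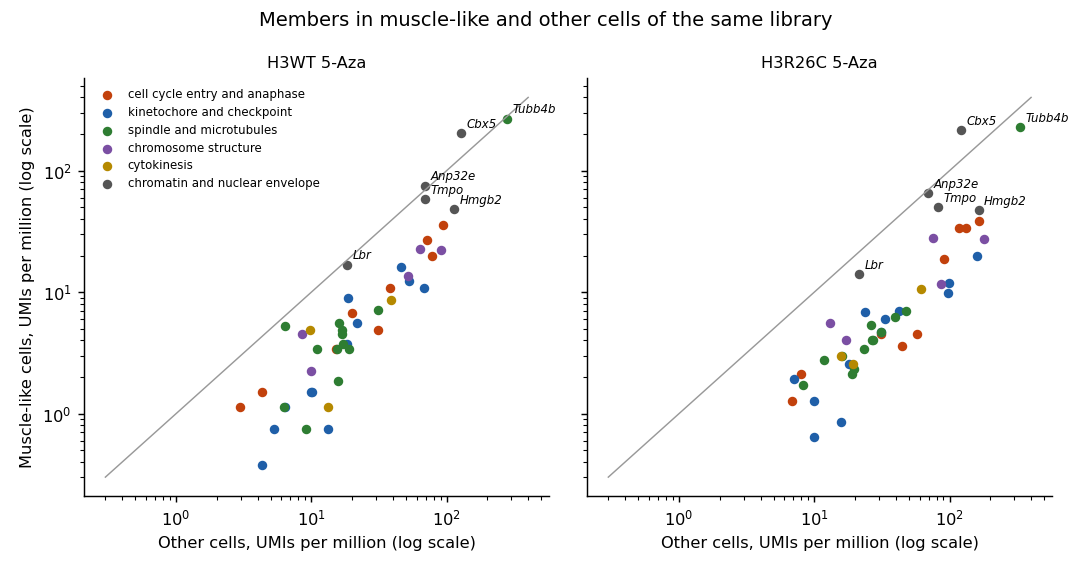
Level of each of the 47 genes in muscle-like cells against the other cells of the same 5-Aza library, in CPM on log axes, coloured by role, with the line of equality. Nearly all genes lie below the line, 45 in H3WT and 46 in H3R26C, and Cbx5 lies above it in both.

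By role, the kinetochore and checkpoint genes were 4.32-fold lower in muscle-like cells of H3WT and 7.46-fold lower in H3R26C, and the cytokinesis genes 4.26-fold and 5.95-fold. The sum of the chromatin and nuclear envelope genes was not lower in H3WT, at 402 against 397 CPM. In H3R26C it was 1.17-fold lower, at 390 against 457 CPM. Single genes of this group went both ways. Hmgb2 was lower in muscle-like cells, with ratios of 0.424 in H3WT and 0.287 in H3R26C. Tmpo was also lower, with 0.843 and 0.605. Lbr had ratios of 0.921 (0.669 to 1.24) and 0.656 (0.505 to 0.838). Cbx5 was higher in both genotypes and is described below with Anp32e. Aurkb had 2 UMIs in the muscle-like cells of H3WT, a ratio of 0.0566 (0.00685 to 0.205) from 0.749 against 13.2 CPM, and Kif23 had 3, a ratio of 0.0844 (0.0174 to 0.247). Birc5 stood at 68.4 CPM in the other cells and 10.9 in the muscle-like cells of H3WT, and at 159 and 19.6 CPM in H3R26C. In H3R26C the genes lowest with 1 CPM added had ratios, without it, as follows: Cdc20, 0.0788 (0.0487 to 0.121), Ccnb2, 0.0822 (0.0479 to 0.132), and Cenpa, 0.10 (0.0733 to 0.134).

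The heterochromatin protein gene Cbx5 was higher in muscle-like cells of both genotypes, at 204 against 127 CPM in H3WT, 1.61-fold (1.47 to 1.75), and at 214 against 121 CPM in H3R26C, 1.78-fold (1.66 to 1.89). Anp32e stood at 75.2 against 69.3 CPM and at 65.3 against 69.5 CPM, with intervals of the ratio that include 1 in both. Tubb4b was at 267 against 280 CPM in H3WT, a ratio of 0.954 (0.885 to 1.03), and at 227 against 332 CPM in H3R26C, 0.684 (0.643 to 0.727). Apart from Cbx5 no gene of the list was higher in muscle-like cells of both genotypes.

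The level was lower in bins of higher sarcomeric RNA. In H3R26C 5-Aza the list stood at 2889 CPM in cells under 0.1% sarcomeric UMIs, 1834 between 0.1% and 1%, 1194 between 1% and 5% and 755 at 5% or more. In H3WT 5-Aza the same bins held 1811, 1535, 1230 and 766 CPM. The intervals of the genotypes overlapped in both bins above 1% and not in the bins below it. With sarcomeric and mitochondrial UMIs left out of the totals, the bins read 1866, 1592, 1320 and 889 CPM in H3WT and 2966, 1896, 1267 and 881 CPM in H3R26C, in the same order.

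**Figure D5:**
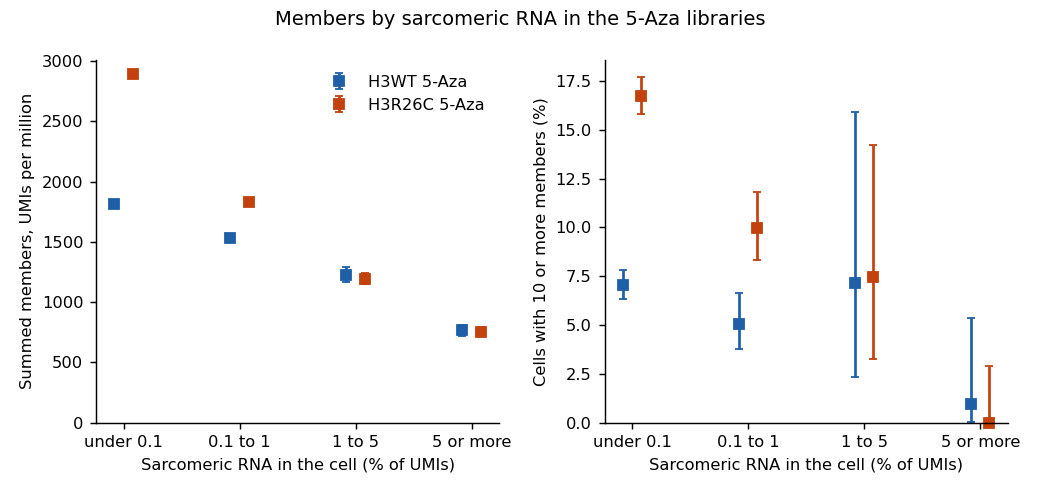
Summed level of the 47 genes in CPM (left) and percent of cells with 10 or more of them after thinning (right) by the sarcomeric share of the cell, in the 5-Aza libraries, with 95% counting intervals. The sum is lower in each further bin, down to 766 and 755 CPM in the bin of 5% or more, where 1 of 102 and 0 of 125 cells held 10 or more of the genes.

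Few muscle-like cells held many of the genes. In H3WT 6 of 172 (3.49%, 1.29 to 7.44%) held 10 or more, against 6.73% of the other cells, and in H3R26C 8 of 232 (3.45%, 1.5 to 6.68%), against 15.6%. The intervals overlap in H3WT and do not in H3R26C. Of these cells, 5 of the 6 in H3WT and all 8 in H3R26C lay between 1% and 5% of sarcomeric UMIs. In H3WT that was 5 of the 70 cells of this bin (7.14%, 2.36 to 15.9%), no lower than the 7.06% of cells under 0.1%. In H3R26C it was 8 of 107 (7.48%, 3.28 to 14.2%), beside 16.7% of cells under 0.1%. At 5% or more, 1 of 102 cells of H3WT held 10 or more of the genes, and 0 of 125 of H3R26C, which allows a share of up to 2.40% by the floor of 3 counts and 2.91% by the exact interval. The muscle-like cells with many of the genes had a median of 21261.5 and 21208.5 UMIs, against 13265 and 18362.5 in all muscle-like cells, and whether they were doublets was not tested.

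The sums were also taken without the cells rich in mitosis RNA, on both sides. Leaving out mitosis-positive cells, which are called from other genes, gave 780 against 747 CPM in H3WT and 827 against 869 CPM in H3R26C, log2 ratios of 0.06 (-0.0011 to 0.13) and -0.07 (-0.12 to -0.02). Of the 47 genes, 30 were then still lower in muscle-like cells of H3WT and 40 in H3R26C. The share of all genes that was then lower was not computed. Leaving out cells with 10 or more genes of the list gave 746 against 728 CPM and 776 against 777 CPM. That choice cuts both sides by the same genes that are then summed, which by itself brings the sums together, so nothing is read from their likeness. Of the mitosis-positive cells, 97.8% in H3WT 5-Aza and 95.8% in H3R26C 5-Aza held 10 or more genes of the list. Leaving out mitosis-positive cells therefore also brings the sums together, and its values, also by role, carry the same limit. Both alternatives were chosen after seeing the data. Without mitosis-positive cells, the chromosome structure genes were 1.83-fold lower in muscle-like cells of H3WT and 1.70-fold lower in H3R26C, and the kinetochore genes 1.24-fold and 1.97-fold, where the log2 interval of H3WT (-0.65 to 0.0060) includes 0. The sum of the chromatin and nuclear envelope genes was higher there, at 387 against 285 CPM and 380 against 284 CPM. Of these 5 genes, 1 was lower in muscle-like cells of H3WT and 3 in H3R26C.

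Genes of cell cycle exit went both ways in muscle-like cells, and their sum was higher. A list of 11 summed to 3364 against 750.0 CPM in H3WT and 2349 against 597 CPM in H3R26C, and most of it was Cdkn1a (p21), at 2756 against 280 CPM and 1865 against 249 CPM. The highest ratio of the list was that of the CDK inhibitor Cdkn1c, from few counts. It was 63.3-fold (32.4 to 130) higher in H3WT, with 29 against 14 UMIs. In H3R26C it was 9.05-fold (3.88 to 19.5) higher, with 10 against 25 UMIs. Rb1, the retinoblastoma protein, was 5.44-fold (4.70 to 6.28) and 3.99-fold (3.48 to 4.56) higher. Gadd45a, a stress-induced inhibitor of growth, was 3.65-fold and 3.90-fold higher, and Ccnd3, the D-type cyclin that stays on in muscle, 1.59-fold and 1.62-fold. Lower were Cdkn1b (p27), with ratios of 0.553 and 0.547, the CDK4 and CDK6 inhibitor Cdkn2c, with 0.616 and 0.576, the pocket protein Rbl2, with 0.593 and 0.602, and Btg2, with 0.762 (0.639 to 0.903) and 0.943 (0.753 to 1.17). Among genes of that list averaging 5 CPM or more, 5 of 9 in H3WT and 4 of 8 in H3R26C were higher. In the same genes 4 of 9 in H3WT and 3 of 8 in H3R26C were at least 2-fold higher, beside 8.54% and 7.36% of all genes. None was 2-fold lower, beside 14.6% and 17.6%. Cdkn1c counts among the 4 in H3WT, and met the minimum only through the muscle-like cells, at 10.9 against 0.171 CPM.

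By median, the regulators of the programme differed less between the libraries than its genes. Of 16 such genes, among them Lin9, Lin37, Lin52 and Lin54 of the MuvB core, Foxm1, Mybl2, the E2F and pocket proteins and the NF-Y subunits, 12 averaged 5 CPM or more and none of these was past 2-fold in any library comparison. Of all genes that met the minimum, 1.5% to 4.44% were at least 2-fold higher and 0.236% to 3.18% lower. For 12 genes a count of 0 is near those shares. Their median log2 ratio was 0.08, 0.16, 0.03 and 0.12 in the order of comparisons above. Single regulators went both ways, from -0.27 to 0.31, -0.58 to 0.38, -0.33 to 0.50 and -0.71 to 0.61. Foxm1 read 5.10, 5.45, 7.60 and 8.82 CPM and Mybl2, below the minimum, 2.44, 1.74, 3.12 and 2.97 CPM. Rbl2, a pocket protein of the DREAM complex, was lowest in H3R26C 5-Aza, at 40.6, 35.5, 32.2 and 21.3 CPM. In muscle-like cells 2 of 12 regulators in H3WT and 2 of 13 in H3R26C were at least 2-fold higher, beside 8.54% and 7.36% of all genes. At least 2-fold lower were 0 and 2, beside 14.6% and 17.6%. E2f2, an activator of S-phase genes, was 11.0-fold (7.13 to 16.5) and 9.35-fold (7.59 to 11.5) higher, and E2f4, which works with the pocket proteins, 1.29-fold and 1.80-fold. Foxm1 had 4 and 5 UMIs in them, ratios of 0.268 (0.0728 to 0.691) and 0.117 (0.0378 to 0.273) to the other cells. E2f2 met the minimum only through the muscle-like cells, at 12.4 against 1.13 CPM in H3WT and 28.8 against 3.08 in H3R26C. Foxm1 and Lin54 met it in H3R26C only through the other cells, at 9.16 and 10.4 CPM, against 1.07 and 4.27 in muscle-like cells.

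Mitosis genes outside the list and S-phase genes were compared in the same way. Of 36 such mitosis genes, 32 averaged 5 CPM or more, and 32, 31, 32 and 32 of them were above 0 in the 4 comparisons, with medians of 0.65, 0.46, 0.86 and 0.75 on the log2 scale. The S-phase genes, in levels pooled over all kept cells, moved less with 5-Aza, with medians of 0.16 and 0.13, and 0.49 and 0.54 for H3R26C over H3WT. Their sum was 692, 744, 955 and 1038 CPM, that is 1.07-fold and 1.09-fold higher with 5-Aza, where the G2 and mitosis genes stood 1.32-fold and 1.38-fold higher. A pooled level is not a share of cells. Cells at the S-phase limit that were not mitosis-positive were 1.16% with DMSO and 1.72% with 5-Aza in H3WT. In H3R26C they were 2.52% and 5.25%.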

How the data were processed

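UMI counts of 4 single-cell RNA libraries, 1 per condition, were analysed. The authors made the deposited counts on mm10 (GRCm38) in Cell Ranger, whose version the matrix headers give as 6.1.0, and deposited them without normalization. The submitters' processing notes also name Seurat 4, whose output was not used here. Barcodes with at least 5000 UMIs, at least 1500 genes and at most 20% mitochondrial UMIs were kept. Libraries or groups of cells were pooled and scaled to CPM. Log2 ratios of single genes used a pseudocount of 1 CPM for calls of 2-fold, over genes averaging 5 CPM or more, and no pseudocount for the ratios printed with intervals. Each cell was thinned to 5000 UMIs for counts of genes per cell. Doublets were not removed. The genes and the lists were chosen with earlier results of these data known, and the limits of 5 mitosis and 8 S-phase genes after the data were seen. Named with values are, in each role group, the 3 genes of highest mean CPM and, in each of the 4 library and both muscle comparisons, the 3 highest and 3 lowest log2 ratios. Others were named after their values were seen. Printed promoters are, outside chromosome 18, those with both letter runs among the 3 genes of highest mean CPM in each of the first 2 role groups, at most 4 in alphabetical order.

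Computation used pandas 2.3.3, scipy 1.17.1, numpy 2.4.6 and, for plots, matplotlib 3.10.9 under Python 3.11.15, and was tested on simulated data. Promoter windows came from RefSeq. Protein sequences of Cks1b and Cks2 were not used here. Reads that fit near-identical copies of a gene are not counted by Cell Ranger, which can lower Tubb4b, Hmgb2, Cbx5 and the Cks genes. Alternatives changed the cell filter, the scaling, the thinning, the limits for many genes and for muscle-like cells, the pseudocount and the minimum level. Intervals and floors cover counting error only, and the floor for a count of 0 is 3 counts.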

Additional observations from a re-analysis of the deposited data

How the results depend on the processing

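With 1 library per condition no replicate could be left out, and the differences between conditions have no replicate check. No paired analysis was possible because the labels number no replicates. The log2 ratios of the sum kept their direction under every alternative run. In the order of comparisons used above they were 0.40, 0.47, 0.54 and 0.62. A looser cell filter gave 0.38, 0.45 and 0.60 in the first, second and last, and a stricter filter 0.48, 0.56, 0.56 and 0.65 in all. A mean of per-cell CPM gave 0.53, 0.41 and 0.54 in the second to last comparisons. Leaving out muscle-like cells gave 0.42, 0.51 and 0.64 in the comparisons that hold 5-Aza cells, and leaving out the chromatin and nuclear envelope genes 0.49, 0.57, 0.65 and 0.72. The shares of cells with many of the genes, in the order H3WT DMSO, H3WT 5-Aza, H3R26C DMSO and H3R26C 5-Aza, were 12.6%, 17.2%, 16.8% and 28.7% at a limit of 5 genes and 2.45%, 4.42%, 4.82% and 8.65% at 20. They were 12.5%, 11.0%, 13.1% and 23.8% without thinning, 4.93%, 9.38%, 10.1% and 22.8% under a stricter filter thinned to 10000 UMIs, and 3.18%, 5.17%, 6.28% and 10.1% for at least 8 of the mitosis genes outside the list. H3WT 5-Aza stood above H3R26C DMSO at the limit of 5 genes, and H3WT DMSO above H3WT 5-Aza without thinning. The muscle-like ratios of H3WT and H3R26C were -1.20 and -1.85 at a limit of 5% sarcomeric UMIs, -0.76 and -1.23 at 0.5%, and -0.75 and -1.39 without sarcomeric and mitochondrial UMIs. In H3R26C they were -1.57 against other cells under 0.1% and -1.58 under the stricter filter. Leaving cells with many of the genes out of both sides gave 0.034 and -0.0027, and leaving out mitosis-positive cells 0.064 and -0.071. The direction of the sum in H3WT thus turned, with intervals that include 0 (-0.033 to 0.10 and -0.0011 to 0.13). Most single genes stayed lower in muscle-like cells, 34 and 42 of 47 in the first case and 30 and 40 in the second. The share of all genes that was lower in these cases was not computed. These leave-outs, like leaving out shared barcodes, were chosen after seeing the data. Counts of genes at least 2-fold higher rest on the pseudocount, being 4, 6 and 10 in the first 3 comparisons at 0.1 CPM, and 1, 1 and 4 in the last 3 at 5 CPM. Within mitosis-positive cells the ratio of 5-Aza over DMSO in H3R26C was -0.09 at a limit of 3 mitosis genes and 0.06 at 8. The cause of these shifts was not tested.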

Other observations

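Genes of cell cycle exit differed between the libraries in ways of their own. Cdkn1a, the CDK inhibitor p21, stood at 219 CPM in H3WT DMSO, 359 in H3WT 5-Aza, 166 in H3R26C DMSO and 317 in H3R26C 5-Aza. Btg2, an antiproliferative gene, read 179, 67.2, 106 and 19.9 CPM in the same order, and Cdkn1b, the inhibitor p27, 139, 105, 146 and 59.3 CPM. Btg2 and Cdkn1b were thus lowest in H3R26C 5-Aza, the library with the highest share of cells with many G2 and mitosis genes. Of the 8 genes of this list averaging 5 CPM or more, 7 were lower in H3R26C than in H3WT with DMSO and 7 with 5-Aza. Their median log2 ratio was -0.29 with DMSO and -0.34 with 5-Aza, where the median over all genes was 0.04 and -0.04. Rb1 and Rbl2 stand both in this list and among the regulators of the mitotic programme.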
